A study of Mus musculus with 12 samples.

Results

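Cathepsins are the proteases of the lysosome, the acidic compartment in which cells digest proteins taken up from outside or delivered by autophagy. The 9 genes described here encode 7 cathepsins (Ctsl, Ctsb, Ctsd, Ctsh, Ctsc, Ctss and Ctsz) and the lysosome-associated membrane proteins Lamp1 and Lamp2. They were chosen by name, and every probe set that the array's annotation assigns to 1 of these symbols was taken, which gave 15 of the 12422 probe sets. Of the 9 genes, 6 had 1 probe set, while Ctsb had 4, Ctsc 3 and Lamp2 2. All 15 lay above the lower limit of measurement (log2 4.53) on at least 3 arrays and were tested among 10331 such probe sets.

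RNA had been taken from muscle at 3 weeks of age and hybridised to 12 arrays. The Dysf_null mice were of the line C57BL/10-SJL.Dysf, labelled Dysf -/-, in which the dysferlin gene of the SJL strain was placed on C57BL/10. Dysferlin sits in the surface membrane of muscle fibres and helps to reseal it after injury. The Control mice were C57BL/10 and labelled Dysf +/+. The muscles, QF and TA, are from knowledge of the study the quadriceps femoris of the thigh and the tibialis anterior of the lower leg. There were 3 arrays for each of Dysf_null_QF, Control_QF, Dysf_null_TA and Control_TA, and no treatment is named in the labels. Nothing says that the replicates came from separate mice, so p-values measure the spread between arrays, which may be technical.

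No probe set carried the name Dysf, so the genotype labels were not checked against that transcript. Of 20 skeletal muscle fibre markers on the array, 19 were above the lower limit on at least 3 arrays and were measured, and Myh2 was not. Each of the 19 exceeded that limit on at least 1 array of every group, which the requirement of 3 arrays makes more likely in advance. Hoxa11, a patterning gene of the lower limb segment, was at the lower limit on every QF array and lay between log2 6.18 and 6.57 on the TA arrays. Both QF arrays that carry the number 2 stood apart: their correlation with each remaining array had a median of 0.866 to 0.876, against 0.926 to 0.959 for the other 10, and the QF calls are given with and without them. Levels below are log2 intensities after normalization, differences are on the same log2 scale given with limma's standard error (SE), and adjusted p-values are limma's after Benjamini-Hochberg adjustment over the 10331 probe sets, called below 0.05. The level of a gene was compared between arrays only, because intensities of different probe sets are not on a common scale.

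Most cathepsins, among them Ctsl, Ctsb, Ctsh, Ctsc, Ctss and Ctsz, are cysteine proteases of the papain family, and Ctsd is an aspartic protease. They are made as inactive precursors, sorted to the lysosome and activated by its acid. Lamp1 and Lamp2 are heavily glycosylated proteins that line the inner face of the lysosome membrane. In wasting muscle Ctsl is a known member of the set of genes induced with the ubiquitin ligases. Transcription factors of the MiT/TFE family, such as TFEB, are known to bind promoters of many lysosomal genes at a motif whose core is CACGTG.

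The 250 bases before the annotated start of 7 of the 9 genes were read from RefSeq (GRCm38.p6). Ctsb and Ctsh had no entry. The core CACGTG, which reads the same on both strands, was in 3 of the 7 windows (Ctsl, Ctsd and Lamp1), and 6.02% of 32851 windows of that length hold it. Lamp1 had it 4 times, a count reached by 0.0213% of windows, Ctsd had it 2 times and Ctsl once. The interferon response motif, GAAA followed by any 2 bases and GAAA, was searched on both strands and was in the windows of Ctss, 12 to 21 bases before the start, and Lamp1, and 2.98% of windows hold it. The forkhead motif TGTTTAC, searched on both strands, was in 0 of the 7 and is in 3.17% of all windows. These motifs do not overlap each other in the 7 windows. A match describes the letters only. The 4 windows below are shown because they hold these motifs and because Ctsl, Ctss, Ctsd and Lamp1 are the genes with which the comparisons below are made. Capitals mark the interferon response motif in Ctss and CACGTG in the others, and each is written 5′ to 3′. The window of Ctsl ends in a run of pyrimidines and the letters ag, as introns do, so the start annotated there may not be the one used in muscle.
Ctsl (chr13:64370521-64370770, minus strand): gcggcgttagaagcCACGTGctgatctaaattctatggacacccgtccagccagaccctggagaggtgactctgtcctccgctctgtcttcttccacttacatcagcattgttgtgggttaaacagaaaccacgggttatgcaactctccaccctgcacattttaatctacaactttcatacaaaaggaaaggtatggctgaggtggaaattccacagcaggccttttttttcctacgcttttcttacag
Ctsd (chr7:142387828-142388077, minus strand): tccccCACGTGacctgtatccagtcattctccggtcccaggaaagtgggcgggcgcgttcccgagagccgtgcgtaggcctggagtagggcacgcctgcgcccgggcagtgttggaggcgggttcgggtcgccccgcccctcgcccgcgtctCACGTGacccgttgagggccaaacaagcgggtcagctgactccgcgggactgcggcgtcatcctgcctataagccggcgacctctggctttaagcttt
Lamp1 (chr8:13158911-13159160, plus strand): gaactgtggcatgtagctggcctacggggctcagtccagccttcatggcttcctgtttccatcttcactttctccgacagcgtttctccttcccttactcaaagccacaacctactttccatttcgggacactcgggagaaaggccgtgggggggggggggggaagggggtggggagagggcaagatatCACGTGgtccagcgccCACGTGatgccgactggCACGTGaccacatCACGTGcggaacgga
Ctss (chr3:95526536-95526785, plus strand): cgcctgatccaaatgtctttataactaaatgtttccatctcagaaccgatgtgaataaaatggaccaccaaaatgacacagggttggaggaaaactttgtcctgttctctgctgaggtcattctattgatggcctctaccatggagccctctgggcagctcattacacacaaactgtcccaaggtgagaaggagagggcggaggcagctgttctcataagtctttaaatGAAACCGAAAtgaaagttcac

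Ctsl fell in Dysf_null QF, and it was the 1 gene of the 9 called there without a block on the replicate numbers. With that block Ctsh and Ctss were called as well, both higher in Dysf_null QF. The level of Ctsl (probe set 101963_at) was 10.43, 10.16 and 10.23 on the Dysf_null_QF arrays, against 11.01, 11.06 and 11.12 on the Control_QF arrays. The groups did not overlap, and every Dysf_null_QF array lay below every Control_QF array. The means were 10.27 ± 0.14 in Dysf_null_QF and 11.06 ± 0.05 in Control_QF (SD, n = 3 each). The difference was -0.79 ± 0.12 (SE, adjusted p = 0.0102), a level 1.73-fold lower in Dysf_null_QF. In whole muscle, fewer cells of a type and less RNA per cell cannot be told apart.

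Of the 15 probe sets, 1 was called in QF, while 0.455% of all tested probe sets were called there. The call of Ctsl held without any 1 array (adjusted p up to 0.0466), and a fit that blocked on the replicate numbers inside each muscle (the replicate block) gave an adjusted p of 0.00321. It was lost without both QF arrays numbered 2 (-0.73 ± 0.13, adjusted p = 0.0864), with the values as deposited (0.0601), with array weights (0.0657), with a variance model that had no trend over intensity (0.11) and when QF was fitted by itself (0.241), at differences between -0.84 and -0.72.

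In TA the level of Ctsl was 9.83, 10.08 and 9.95 in Dysf_null_TA, against 9.93, 9.91 and 9.78 in Control_TA. These ranges overlapped, and the difference was 0.08 ± 0.12 (adjusted p = 1), with a 95% interval from -0.17 to 0.33. Of the 15 probe sets, 0 were called in TA by limma and 0 had an unadjusted p under 0.05, while 0.407% of all tested probe sets were called. With the replicate block the count in TA was also 0, beside 1.54% of all.

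The genotype difference of Ctsl in TA minus that in QF was 0.87 ± 0.17. Its adjusted p was 0.132, and 0.036 with the replicate block (SE 0.13). Without the block, 0 of the 15 probe sets were called for this interaction by limma and 1 had an unadjusted p under 0.05, beside 0.0678% of all probe sets called. With the block the 1 called was Ctsl, beside 0.31% of all. That call was lost without both QF arrays of any 1 number (adjusted p = 0.0988, 0.174 and 0.156 without those numbered 1, 2 and 3). Averaged over both muscles the difference of Ctsl was -0.36 ± 0.08 (adjusted p = 0.069, and 0.0174 with the block).

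**Figure D1:**
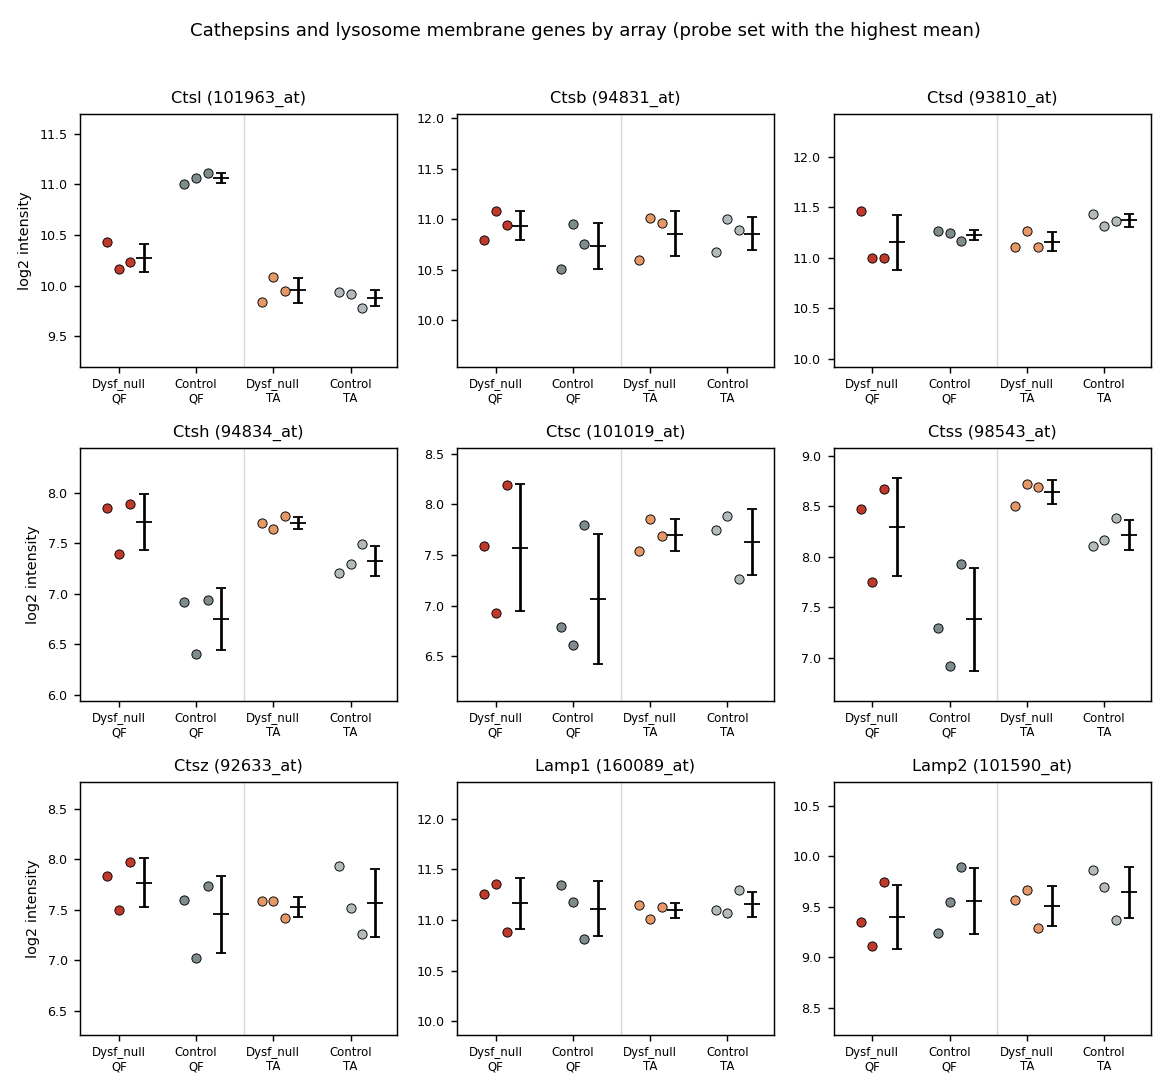
Log2 intensity of the 9 genes on each of the 12 arrays, taking for every gene its brightest probe set by mean. Points are arrays, in the order of their replicate numbers, bars are the mean ± SD of 3 arrays, and each vertical axis spans the same log2 range. Ctsl lies between 10.16 and 10.43 in Dysf_null_QF and between 11.01 and 11.12 in Control_QF.

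Ctsl also differed between the muscles of control mice. It fell in Control_TA relative to Control_QF by 1.19 ± 0.12 on the log2 scale (adjusted p = 0.000164), or 2.28-fold, and this call held under all 22 alternatives run for it, 12 of which left out 1 array each. The groups did not overlap. In Dysf_null mice the TA level was also below the QF level on every array, by a smaller and uncalled difference of -0.32 ± 0.12 (adjusted p = 0.758). Of the 15 probe sets, 1 was called between muscles in Control mice, beside 0.736% of all. By limma 3 had an unadjusted p under 0.05 there: Ctsl, and Ctss (0.84 ± 0.28) and Ctsh (0.58 ± 0.24), which had higher means in Control_TA. In Dysf_null mice 0 were called by limma, beside 0.3% of all, and 1, that of Ctsl, had an unadjusted p under 0.05.

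By group mean the order of Ctsl was thus Control_QF, Dysf_null_QF, Dysf_null_TA and Control_TA. The last 2 overlapped, and Dysf_null_QF and Dysf_null_TA, although separate, did not differ by the test. The difference between genotypes in QF and that between muscles in Control mice share the Control_QF arrays, so they are not independent of each other. Of the other 14 probe sets 0 were called between muscles in either genotype, with differences from -0.13 to 0.88 in Control mice and from -0.33 to 0.54 in Dysf_null mice.

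Ctsh and Ctss had higher mean levels in Dysf_null QF, and these differences passed the test with the replicate block and not without it. In TA they passed in neither fit. Cathepsin H is an aminopeptidase, and cathepsin S is the protease that trims the invariant chain from class II molecules in antigen-presenting cells. Ctsh (94834_at) was at 7.85, 7.39 and 7.89 in Dysf_null_QF, against 6.92, 6.40 and 6.94 in Control_QF. The groups did not overlap, and on both sides the array numbered 2 was the lowest. The difference was 0.96 ± 0.24 (adjusted p = 0.144), and with the block it was 0.96 ± 0.15 (adjusted p = 0.0123).

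Ctss (98543_at) was at 8.47, 7.75 and 8.67 in Dysf_null_QF, against 7.30, 6.92 and 7.92 in Control_QF. Here the ranges overlapped, since Dysf_null_QF 2 lay below Control_QF 3, while each Dysf_null array lay above the Control array of its own number. The difference was 0.91 ± 0.28 (adjusted p = 0.296), and 0.91 ± 0.13 with the block (adjusted p = 0.00823). The block raised the count of member probe sets called in QF to 3, and the count over all probe sets to 273 (2.64%), against 47 without it.

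With the block, leaving out both QF arrays of 1 number kept 2 of these 3 calls in QF without the arrays numbered 2 (Ctsl and Ctss), 2 without those numbered 3 (Ctsl and Ctss) and 1 without those numbered 1 (Ctsl).

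In TA the levels of Ctsh were 7.70, 7.64 and 7.77 in Dysf_null_TA, against 7.20, 7.29 and 7.49 in Control_TA. Those of Ctss were 8.51, 8.72 and 8.69 in Dysf_null_TA, against 8.10, 8.17 and 8.38 in Control_TA. Neither pair of groups overlapped, and the differences, 0.37 ± 0.24 for Ctsh and 0.42 ± 0.28 for Ctss, did not pass the test (adjusted p = 1 each). With the block the adjusted p-values in TA were 0.364 for Ctsh and 0.205 for Ctss.

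Averaged over both muscles, the difference was 0.67 ± 0.17 for Ctsh (adjusted p = 0.0964) and 0.67 ± 0.20 for Ctss (adjusted p = 0.177). With the block they were 0.00857 and 0.00429, and 3 member probe sets were called, those of Ctsl, Ctsh and Ctss, beside 4.59% of all probe sets. Without it, 0 of 15 were called for the average by limma, 3 had an unadjusted p under 0.05, and 1.09% of all probe sets were called. The average of Ctsh was also called, with no block, without both QF arrays numbered 2 (0.66 ± 0.13, adjusted p = 0.044), with the values as deposited (0.0346) and with array weights (0.0362). That of Ctss was called with array weights (0.0276).

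Ctss and Ctsh are abundant in cells of the immune system, and markers of such cells were read beside them. Of 22 measured macrophage and monocyte markers 16 had a positive difference in QF, with a median of 0.25 against -0.01 for all probe sets, and 0 passed the test (2 rose with the block, Lyz2 and C1qa). The summed normalized intensity of these markers ranged from 4941 to 5534 in Dysf_null_QF, against 3775 to 4413 in Control_QF. In TA it ranged from 4653 to 5291 in Dysf_null_TA, against 3922 to 4619 in Control_TA. Of the 22 markers, 20 had a positive difference in TA, with a median of 0.25. Averaged over both muscles 1 rose without the block, Lyz2 (0.70 ± 0.13, adjusted p = 0.0219). The 1 marker of this list that passed in TA, Cd68, fell (-1.27 ± 0.19, adjusted p = 0.0104), opposite to the sum. None of the 22 was at the lower limit on all arrays of a QF group, and Aif1 was at it on all Control_TA arrays.

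Among 10 markers of dendritic and B cells, 2 rose in QF (4 with the block) and 8 did not pass. Those that rose were the invariant chain gene Cd74 by 1.14 ± 0.17 (adjusted p = 0.00961) and the class II gene H2-Aa by 2.59 ± 0.47 (adjusted p = 0.0314). H2-Aa was at the lower limit on Control_QF 1 and 2, so its size in QF depends on that limit. The same 2 genes rose in TA, Cd74 by 1.26 ± 0.17 (adjusted p = 0.00389) and H2-Aa by 2.54 ± 0.47 (adjusted p = 0.0346). Averaged over both muscles 4 of the 10 rose without the block. Of the 10, 6 had a positive difference in QF, while Ciita (-0.55), Ms4a1 (-0.54), Cd79a (-0.19) and Itgax (-0.19) had a negative one. The sum of the 10 ranged from 2013 to 2338 in Dysf_null_QF, against 1174 to 1504 in Control_QF. In TA it ranged from 2019 to 2167 in Dysf_null_TA, against 1286 to 1379 in Control_TA. Of 12 fibroblast markers 4 rose in QF (8 with the block) and 8 did not pass, with sums from 32830 to 45170 in Dysf_null_QF, against 20050 to 27450 in Control_QF. Of 14 granulocyte and mast cell markers 1 fell in QF (3 with the block), S100a9. In TA 2 rose (4 with the block), S100a9 by 2.74 ± 0.33 (adjusted p = 0.00179) and S100a8 by 2.32 ± 0.38 (adjusted p = 0.0164). Both interactions were called without the block (adjusted p = 0.00115 and 0.0128). S100a9 was at the lower limit on Dysf_null_QF 1 and 2 and on Control_TA 1, so the size of its differences depends on that limit. The sum of the 14 ranged from 1213 to 1408 in Dysf_null_QF, against 1431 to 1832 in Control_QF. In TA the sum ranged from 2043 to 2213 in Dysf_null_TA, against 1208 to 1445 in Control_TA. Of 6 T and natural killer cell markers 1 rose in QF, Thy1, which is also on the fibroblast list. Of the 19 muscle fibre markers 0 passed in QF, with sums from 191200 to 202800 in Dysf_null_QF, against 206500 to 213300 in Control_QF. Without both QF arrays numbered 2, 0 of the 7 marker genes called in QF were called by limma (adjusted p from 0.0573 to 0.152), each with its sign unchanged, and 6 were called there with the block. In QF the macrophage, dendritic and fibroblast sums were higher in Dysf_null mice, as were the means of Ctsh and Ctss. The granulocyte and muscle fibre sums were lower there. In TA the macrophage, dendritic, fibroblast and granulocyte sums were higher in Dysf_null mice, and the muscle fibre sum was lower. The part of these cell types in the differences of Ctsh and Ctss was not tested.

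**Figure D2:**
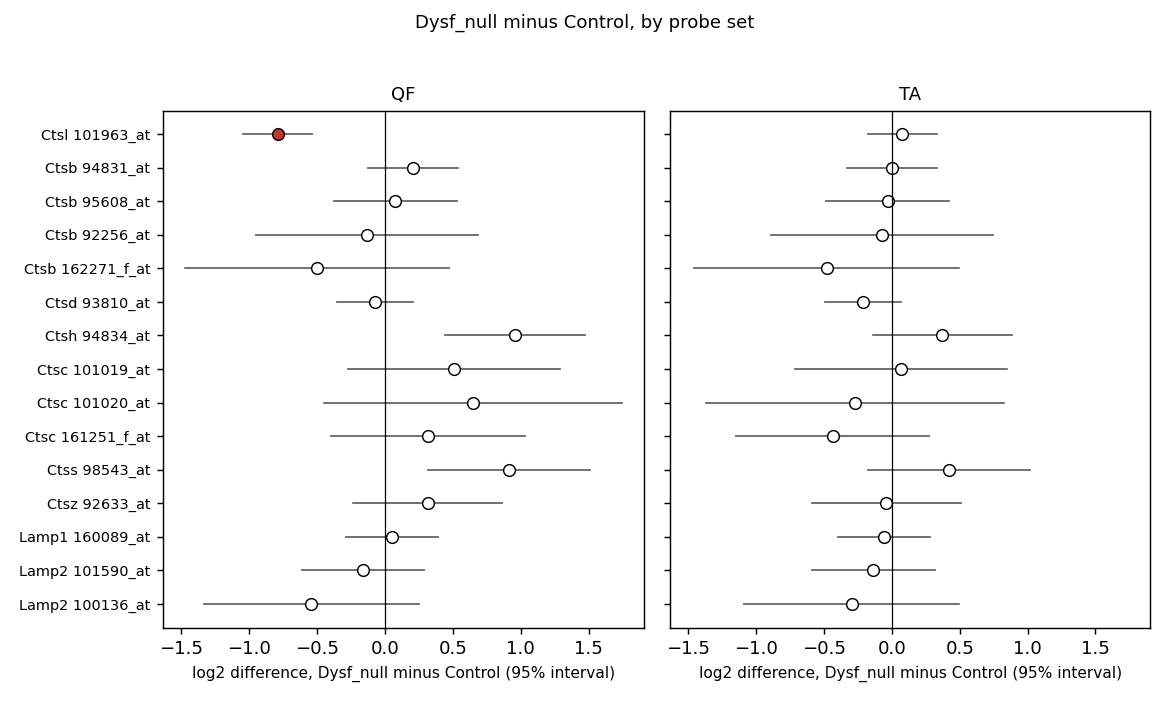
Log2 difference, Dysf_null minus Control, of the 15 probe sets in QF (left) and TA (right), with 95% intervals from the limma fit. Filled points have an adjusted p under 0.05. In QF the filled point is Ctsl at -0.79, and Ctsh and Ctss lie at 0.96 and 0.91.

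The remaining genes gave no call with genotype in either muscle, with or without the block. Lamp1 (160089_at) was at 11.26, 11.36 and 10.88 in Dysf_null_QF, against 11.35, 11.18 and 10.81 in Control_QF. The groups overlapped, and the difference was 0.05 ± 0.16, with a 95% interval from -0.28 to 0.39. In TA it was -0.06 ± 0.16. Ctsd (93810_at), which takes part in activating other cathepsins, was at 11.47, 11.00 and 11.00 in Dysf_null_QF, against 11.27, 11.24 and 11.17 in Control_QF. Its difference was -0.07 ± 0.13, with a 95% interval from -0.35 to 0.21, and the Dysf_null_QF arrays surrounded the Control_QF arrays.

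Ctsd in TA was at 11.11, 11.27 and 11.11 in Dysf_null_TA, against 11.44, 11.31 and 11.37 in Control_TA. These groups did not overlap, with a difference of -0.21 ± 0.13 that did not pass (adjusted p = 1). In all, 2 of the 15 probe sets had groups that did not overlap in QF (Ctsl and Ctsh), while 7.53% of all probe sets did. In TA there were 4 (Ctsd, Ctsh, Ctss and 1 of Lamp2), while 13.8% of all did.

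Ctsb, a cysteine protease that is also a peptidyl dipeptidase, was read by 4 probe sets that did not point the same way in QF. The probe set with the highest mean, 94831_at, gave 0.20 ± 0.15 in QF and 0.00 ± 0.15 in TA. The others gave 0.08, -0.13 and -0.50 in QF, and the last of these, 162271_f_at, was near the lower limit, which Dysf_null_QF 1 and 2 and Dysf_null_TA 1 and 3 did not exceed. The suffix f marks a probe set that may bind transcripts of related sequence, so its value is uncertain.

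The 3 probe sets of Ctsc, the dipeptidase that activates the proteases of granulocytes and mast cells, gave 0.51 ± 0.36, 0.65 ± 0.51 and 0.32 ± 0.33 in QF, and 0.07, -0.27 and -0.44 in TA. The third, 161251_f_at, also has the suffix f and lay close above the lower limit, between 4.56 and 5.89. Ctsz, a carboxypeptidase, gave 0.31 ± 0.25 in QF and -0.04 ± 0.25 in TA. The 2 probe sets of Lamp2, a receptor of chaperone-mediated autophagy in 1 of its forms, gave -0.16 ± 0.21 and -0.54 ± 0.36 in QF and -0.13 ± 0.21 and -0.30 ± 0.36 in TA. Over the 15 probe sets, the median difference was 0.08 in QF and -0.06 in TA, against medians of -0.01 and 0.00 over all probe sets.

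To set Ctsl against the other lysosomal genes, log2 Ctsl was subtracted from every probe set on each array and the fit was repeated, which tests whether a probe set's genotype difference is unequal to that of Ctsl. Ctsl was singled out with its fall in QF known, so these p-values are not independent evidence of that fall. In QF, 11 of the other 14 probe sets differed from Ctsl, with at least 1 probe set of each of the other 8 genes, and all 14 estimates were positive. The background is high, since 44.3% of all probe sets differed from Ctsl in QF. With the block 12 of the 14 differed, beside 70.1% of all. Without both QF arrays numbered 2 the count, with no block, was again 11. The median over the 14 was 0.93, against 0.78 over all probe sets.

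For Ctsd the log2 ratio to Ctsl was 1.04, 0.84 and 0.77 in Dysf_null_QF, against 0.26, 0.18 and 0.05 in Control_QF, without overlap. The difference was 0.72 ± 0.13 (adjusted p = 0.00175). For Lamp1 the ratio was 0.83, 1.20 and 0.65 in Dysf_null_QF, against 0.34, 0.11 and -0.30 in Control_QF, also without overlap. The difference was 0.84 ± 0.19 (adjusted p = 0.00599). The estimates for Ctsh (1.75 ± 0.26, adjusted p = 0.000688) and Ctss (1.70 ± 0.27, adjusted p = 0.000979) were the highest of the 14. The 3 that did not pass were the Ctsb probe sets 92256_at and 162271_f_at and the Lamp2 probe set 100136_at. A ratio within an array shows unequal change and does not say which of the 2 transcripts moved.

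In TA, 0 of the 14 differed from Ctsl by limma and 1 had an unadjusted p under 0.05 (Ctsd, -0.29 ± 0.13), beside 0.348% of all called. Averaged over both muscles, 3 of the 14 differed, beside 8.5% of all: Ctsb (94831_at) by 0.46 ± 0.12, Ctsh by 1.02 ± 0.18 and Ctss by 1.02 ± 0.19. The other Ctsb probe sets, at 0.38, 0.25 and -0.13, did not pass. With the block the count for the average was 7, beside 29.2% of all, and in TA it was 0, beside 0.9% of all.

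**Figure D3:**
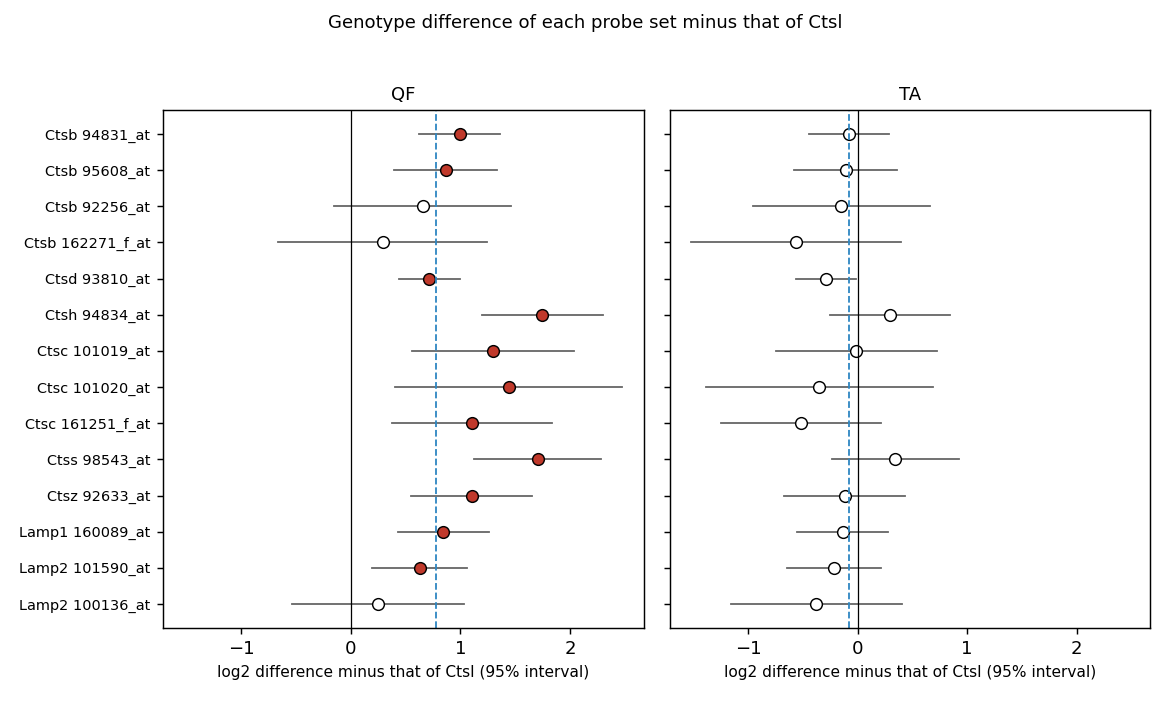
Genotype difference (Dysf_null minus Control, log2) of each of the other 14 probe sets minus that of Ctsl, in QF (left) and TA (right), with 95% intervals. Filled points have an adjusted p under 0.05, and the dashed line is the median over all probe sets, 0.78 in QF and -0.08 in TA. In QF 11 points are filled and in TA 0.

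The rest of the lysosomal pathway was read from 6 lists (other cathepsins, cathepsin inhibitors, acid hydrolases, other membrane and transport proteins, vacuolar ATPase subunits and sorting proteins) with 85 measured genes. In QF 0 of the 85 rose, 1 fell and the median difference was 0.08, against -0.01 over all probe sets. The gene that fell was Npc1, which encodes the cholesterol transporter of the lysosome membrane. Npc1 was at 7.84, 7.88 and 7.91 in Dysf_null_QF, against 8.94, 8.74 and 8.77 in Control_QF, a difference of -0.94 ± 0.17 (adjusted p = 0.0326). The groups did not overlap. Without both QF arrays numbered 2 the call was lost at -0.98 ± 0.19 (adjusted p = 0.106, and 0.0573 with the block). In TA the difference of Npc1 was -0.28 ± 0.17 (adjusted p = 1). Averaged over both muscles Npc1 was called, at -0.61 ± 0.12 (adjusted p = 0.0313). The change between muscles in Control mice was -0.85 ± 0.17 (TA minus QF, adjusted p = 0.043, and 0.0635 without those 2 arrays). It shares the Control_QF arrays with the genotype difference in QF.

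In TA 1 of the 85 rose and 1 fell. The tartrate-resistant acid phosphatase gene Acp5, known from osteoclasts and macrophages, was at 7.96, 8.41 and 8.19 in Dysf_null_TA, against 6.17, 6.52 and 6.27 in Control_TA. It rose by 1.87 ± 0.25 (adjusted p = 0.0039). In QF Acp5 gave 0.38 ± 0.25 (adjusted p = 0.964), and its average over both muscles was called (1.12 ± 0.18, adjusted p = 0.00656). The gene of cathepsin K, Ctsk, a collagen-degrading protease of osteoclasts, gave 1.43 ± 0.29 (adjusted p = 0.0687, and 0.00318 with the block). Cd68, a lysosomal membrane glycoprotein of macrophages, fell by 1.27 ± 0.19 on the log2 scale (adjusted p = 0.0104). Its interaction passed with the block (-1.43, adjusted p = 0.0328) and not without it (0.125). Between muscles in Control mice Cd68 rose by 1.60 ± 0.19 (TA minus QF, adjusted p = 0.000931, and 0.00271 without both QF arrays numbered 2). The genotype difference of Cd68 in TA and this one share the Control_TA arrays. Of the 5 measured osteoclast markers 2 rose in TA (3 with the block), Acp5 and the matrix protease gene Mmp9, with summed intensities from 1047 to 1233 in Dysf_null_TA, against 344.3 to 384.7 in Control_TA. A second probe set of Mmp9 gave 0.34 in TA (adjusted p = 1), against 3.12 on the brighter one used here. Acp5 and Ctsk are themselves 2 of the 5, Mmp9 was at the lower limit on all Control_TA arrays, and Calcr, the calcitonin receptor, was at it on all Dysf_null_TA arrays. Their part in the differences of Acp5 and Ctsk was not tested.

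By list, the QF counts were 0 of 4 other cathepsins, 0 of 4 inhibitors, 0 of 28 acid hydrolases, 1 of 20 membrane and transport proteins, 0 of 14 ATPase subunits and 0 of 15 sorting proteins. With the block 1 ATPase subunit also fell in QF, Atp6v1h (-0.70, adjusted p = 0.0244, and 0.524 without the block). Among 7 measured MiT/TFE and FoxO regulators 0 passed in either muscle without the block. Tfeb, the MiT/TFE factor named above, gave -0.07 ± 0.39 in QF and -1.48 ± 0.39 in TA (adjusted p = 0.254, and 0.0111 with the block).

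Autophagy and atrophy genes, which deliver material to the lysosome or are induced with Ctsl in wasting, were lower in QF of Dysf_null mice for those that passed. Both lists were written with earlier results of these data known, so their direction is not independent evidence. Of 16 measured autophagy genes 2 fell in QF (4 with the block), 0 rose and 14 did not pass, with a median of -0.35 against -0.01 over all probe sets. The reticulophagy receptor gene Retreg1 was at 11.14, 10.61 and 10.78 in Dysf_null_QF, against 12.47, 12.32 and 12.21 in Control_QF, and its difference was -1.49 ± 0.16 (adjusted p = 0.0019). The mitophagy receptor gene Bnip3 was at 9.08, 9.17 and 9.78 in Dysf_null_QF, against 10.36, 10.78 and 10.61 in Control_QF, and its difference was -1.24 ± 0.18 (adjusted p = 0.00961). Neither gene had overlapping groups in QF. In TA the differences were -0.31 ± 0.16 for Retreg1 and -0.01 ± 0.18 for Bnip3 (adjusted p = 1 each).

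Of 9 measured ubiquitin ligase and atrophy genes 4 fell in QF and 5 did not pass. They were the metallothionein genes Mt2 (-1.82 ± 0.22) and Mt1 (-1.56 ± 0.28), the translation repressor gene Eif4ebp1 (-1.04 ± 0.17) and the glucocorticoid-responsive co-chaperone gene Fkbp5 (-1.20 ± 0.22). None of the 4 is a ligase or a protease. Without both QF arrays numbered 2, Mt2 was called (-1.60 ± 0.13, adjusted p = 0.00225), and Retreg1 (0.0513), Bnip3 (0.116), Eif4ebp1 (0.0652), Mt1 (0.215) and Fkbp5 (0.204) were not. With the block and without those arrays, Mt2, Retreg1, Bnip3, Eif4ebp1 and Mt1 were called and Fkbp5 was not (0.145). In TA 0 of these 9 and 0 of the 16 autophagy genes passed without the block, and 1 of each list fell with it. The TA medians were -0.07 for the autophagy list and -0.32 for these 9, whose QF median was -0.13. Averaged over both muscles without the block, 3 autophagy genes fell (Retreg1, Sqstm1 and Bnip3), beside 1.09% of all probe sets called. Of these 9, 4 fell for that average (Mt2, Fkbp5, Mt1 and Eif4ebp1). For the interaction 0 of these 9 passed in either fit.

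Between muscles in Control mice, Retreg1 (-0.97 ± 0.16, TA minus QF), Bnip3 (-1.10 ± 0.18) and Eif4ebp1 (-1.12 ± 0.17) fell, as Ctsl and Npc1 did. These differences share the Control_QF arrays with the genotype differences in QF, so the falls in both comparisons are not independent of each other. Map1lc3b of the autophagy list also fell in Control_TA relative to Control_QF (-0.59 ± 0.115, adjusted p = 0.0345). Its second probe set gave -0.82 and did not pass (adjusted p = 0.223). Without both QF arrays numbered 2, Retreg1 (adjusted p = 0.0365) and Eif4ebp1 (0.00347) were called there, and Bnip3 (0.0565) and Map1lc3b (0.053) were not. In Dysf_null mice none of Ctsl, Npc1, Retreg1, Bnip3 and Eif4ebp1 was called between muscles. Gadd45a of the atrophy list was called there, at -0.75 ± 0.14 (TA minus QF, adjusted p = 0.0487). The interaction passed with the block for Retreg1 (1.18, adjusted p = 0.0328) and Bnip3 (1.23, adjusted p = 0.0342), and not without it (0.125 and 0.24). For Npc1 and Eif4ebp1 it did not pass in either fit.

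**Figure D4:**
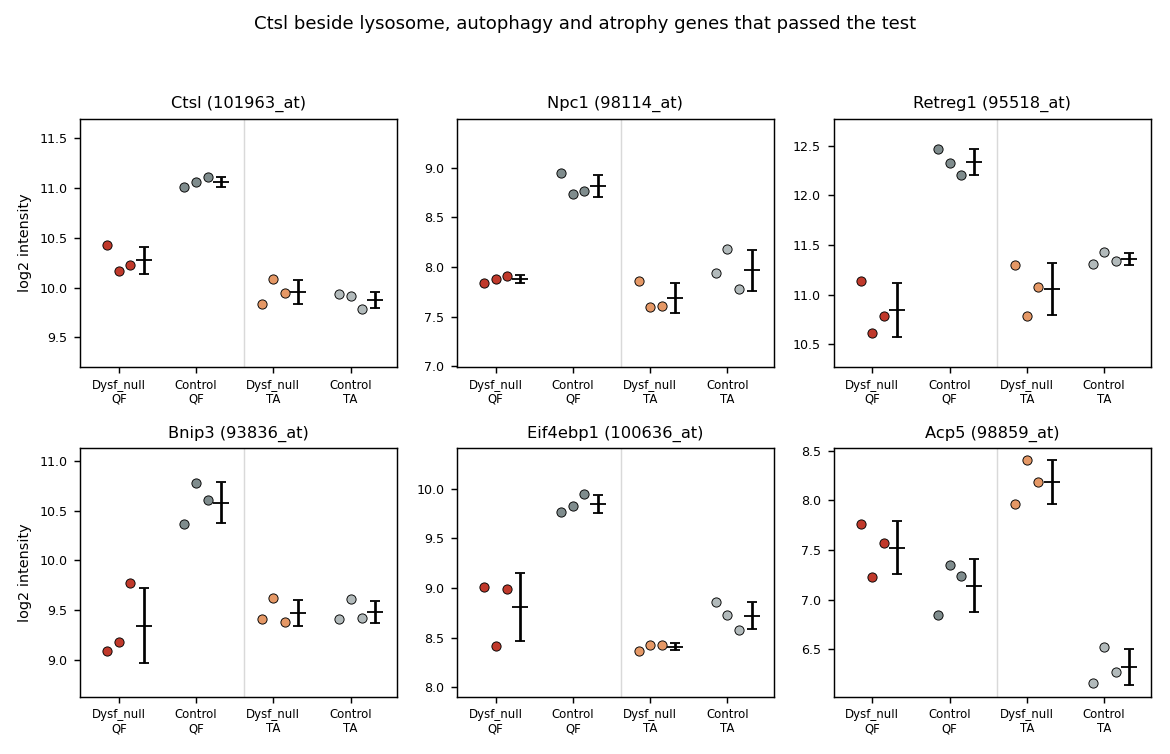
Log2 intensity on each array of Ctsl, of Npc1, Retreg1, Bnip3 and Eif4ebp1, which fell in QF, and of Acp5, which rose in TA. Points are arrays and bars the mean ± SD of 3 arrays. For the first 5 genes the Control_QF arrays lie above the arrays of the other 3 groups, and for Acp5 the Control_TA arrays lie below all others. The first 5 are shown because they fell in QF, a difference that itself uses the Control_QF arrays.

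Of 9151 probe sets with 1 gene symbol other than Ctsl, the 5 whose levels followed Ctsl most closely over the 12 arrays were those of Igfbp3 (Pearson r = 0.94), an insulin-like growth factor binding protein, Eif4ebp1 (0.94), the transcription factor Cebpd (0.93), the secretory pathway GTPase Sar1b (0.93) and the kinase Tbk1 (0.91). For Ctss they were the cell cycle gene Cks1b (0.97), Crip1 (0.94), the annexin Anxa3 (0.94) and the collagen genes Col6a3 (0.94) and Col5a1 (0.94). These correlations are descriptions over arrays of 4 groups that share a normalization, and the 5 were the highest of all compared.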

How the data were processed

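The file deposited by the authors held linear intensities for 12488 probe sets. Array means, with 2% trimmed from each end, were 200.1 to 200.2, so arrays had been scaled alike before deposit. Which software made them is not given in the sources used here. All 66 control probe sets were left out. Array medians differed 1.47-fold, above the 1.25-fold limit, so the 12422 probe sets were quantile normalized, floored at the 25th percentile (intensity 23.025) and put on the log2 scale. Testing was limited to the 10331 that exceeded the floor on 3 or more arrays. Arrays have no depth, and their number limits the precision (median SE of a difference 0.323).

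Names came from the platform's annotation: 10833 probe sets had 1 symbol, 396 several and 1193 none, and RefSeq gene numbers changed 0. Group means were fitted to all 12 arrays with limma 3.58.1 in R 4.3.3, with an intensity trend, two-sided tests and Benjamini-Hochberg adjustment. The fit was tested on simulated data. Promoters were read with Python 3.11.15, and figures drawn with matplotlib 3.10.9.

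Every member was named. Of each list, genes called and otherwise the 1 with the smallest p could be named, up to 4, and a gene was read on its probe set with the highest mean. C1qa was named after its values were seen. Members, lists and settings were chosen with earlier results of these data known. The alternatives changed the normalization, floor, filter, variance model, weights, arrays and block.

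For arrays of the same number, the correlation of deviations from group means was 0.39, 0.71 and 0.66 in QF and 0.18, 0.11 and 0.23 in TA. All were above the minimum of 0.1, so the replicate numbers were taken to pair the arrays of a muscle. Arrays of unlike number were not compared in this way, and the labels do not say that equal numbers mark a pair. The replicate block is thus an assumption drawn from these same data, and calls that pass only with it rest on that assumption.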

Additional observations from a re-analysis of the deposited data

Results flagged for a closer look

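The interaction of Ctsl (TA minus QF) was picked out because its test passed with the replicate block within each muscle. It was 0.87, with an adjusted p of 0.036 with the block and 0.132 without it. It was called in 1 of 25 alternative settings (adjusted p from 0.036 to 0.829). The blocked call was lost without both QF arrays of any 1 number. No cause was tested.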

How the results depend on the processing

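Across 26 alternative settings, the fall of Ctsl between muscles in Control mice was called in every one that gave it, and the fall of Ctsl in QF in 21 of 26. Of 88 combinations of a member probe set and a comparison that were not called, 82 were called under no setting, and 41 changed sign somewhere without a call. The replicate block within each muscle gave 3 called member probe sets in QF, 3 for the average, 1 for the interaction and 7 of 14 against Ctsl for the average. Beside these, 2.64%, 4.59%, 0.31% and 29.2% of all probe sets were called. It gave 0 in TA, as without it. In QF the count was 0 with the values as deposited, without the intensity trend, with array weights, with the 2 groups fitted alone (limma called 0 of all probe sets there) and without both QF arrays numbered 2. With the 2 groups fitted alone, 6 differed from Ctsl in QF. For the average it was 1 with the values as deposited (Ctsh), 1 without a filter on low values (Ctsl), 2 with array weights (Ctsh and Ctss) and 1 without both QF arrays numbered 2 (Ctsh). Chosen after seeing the data, the replicate block without both QF arrays of 1 number gave 2 in QF without those numbered 2 or 3, and for the average 3, 2 and 2 without those numbered 1, 2 and 3. Leaving out 1 array at a time changed none of the counts of member probe sets by over 1.5 times. Ctsl has 1 probe set, so another one could not be tried. Also chosen after seeing the data, the fit without both QF arrays numbered 2 called 1 of the 7 pathway genes and 0 of the 7 marker genes that limma called in QF, all with the same sign. The causes of these changes were not tested.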
